A study of Arabidopsis thaliana with 10 samples.

Results

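A set of 5 genes of calcium signalling was followed across 10 ATH1 arrays of Arabidopsis thaliana rosette leaves. They were the calmodulin-like genes CML37 (AT5G42380), CML38 (AT1G76650) and CML23 (AT1G66400), the EF-hand gene AT4G27280 and AT5G66650, a gene of the calcium uniporter family. Each has 1 probe set of its own, so they make up 5 of 22746 gene probe sets on the array, and of the 14435 that entered the test. They were chosen by their signals on these arrays, which were high in flu against wild type and differed between the flu lines, so every level and difference of the 5 genes is given as a description. Where the text counts how many of them passed the threshold of the whole-table fit, the share of all probe sets that did so stands beside it, and nothing is read from the count.

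The 10 arrays cover 5 genotypes in the Columbia accession, 2 arrays each: the ex1/ex2/flu line, then ex1/flu and ex2/flu, the flu parent and wild type. All but wild type carry the flu mutation, brought from Landsberg erecta into Columbia by 5 backcrosses. The ex1 and ex2 alleles are T-DNA insertions in EXECUTER1 and EXECUTER2, and the line with both came from a cross of ex1/flu with ex2/flu. Each genotype is thus 1 line, and RNA from leaves of 5 mature plants was pooled per array. Plants raised on soil without a night until they began to bolt were put in darkness for 8 h, then lit for 30 min and harvested. No array of dark-kept plants was among the 10, so a difference that was already there in the dark cannot be told apart from one that arose in the light.

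Calcium ions act as a second messenger in plant cells. A stimulus raises their level in the cytosol or inside an organelle, and proteins with EF-hands, helix-loop-helix folds that hold a calcium ion, change shape when they bind it. Calmodulin and the calmodulin-like (CML) proteins consist of little more than EF-hands and pass the signal on by binding other proteins. Transcripts of several CML genes accumulate after touch, wounding or pathogen contact. Proteins of the uniporter family let calcium cross the membranes of organelles, down its gradient. In flu plants the chlorophyll precursor protochlorophyllide collects in the dark and gives singlet oxygen in the plastid upon light, and the plastid proteins EXECUTER1 and EXECUTER2 are needed to carry that stress signal to the nucleus.

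The EX1 probe set was lower in both lines labelled ex1. It had a mean log2 signal of 7.67 ± 0.20 in ex1/ex2/flu and 7.92 ± 0.05 in ex1/flu, against 9.22 ± 0.12 in ex2/flu, 9.59 ± 0.0012 in flu and 9.42 ± 0.25 in wild type (SD, n = 2 each). FLU and EX2 were not analysed here. Of 13 leaf markers, 2 had a probe set of their own, and both, RCA and PRK, enzymes of carbon fixation, lay above the 99th percentile on the 10 arrays (lowest percentile 99.4). EXPA7, the 1 of 6 root markers with a probe set, did not reach the filter's level on any array, and none of 6 inflorescence markers was measured. The arrays of a genotype correlated at 0.973 to 0.985 across the probe sets tested. Values are the deposited signals, which are linear and scaled to a common mean on every array. A probe set was tested if it reached the 40th percentile of its array, a signal of 85.5 to 92.6, on at least 2 arrays. CML37, CML38, CML23 and AT4G27280 passed that level on 10 arrays and AT5G66650 on 8.

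CML37 encodes a calmodulin-like sensor that is known to be induced by wounding and herbivory. Its signal was 393 and 198 in ex1/ex2/flu, 272 and 363 in ex1/flu, 1127 and 1629.9 in ex2/flu, 642 and 778 in flu and 238 and 165 in wild type. The arrays of ex2/flu were the highest and those of flu came next, with no overlap. The arrays of ex1/flu, ex1/ex2/flu and wild type lay lower, and those of ex1/ex2/flu overlapped both of the others. The mean log2 signal was 8.13 ± 0.70 in ex1/ex2/flu, 8.30 ± 0.30 in ex1/flu, 10.40 ± 0.38 in ex2/flu, 9.47 ± 0.20 in flu and 7.63 ± 0.37 in wild type (SD, n = 2 each). Flu stood 1.84 ± 0.29 log2 units above wild type, a 3.57-fold difference (moderated SE, n = 2 per genotype).

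CML38, the gene next to AT1G76640 on chromosome 1, encodes a sensor whose transcript is known to respond to wounding and to low oxygen. It had a signal of 541 and 236 in ex1/ex2/flu, 518 and 564 in ex1/flu, 1386 and 2072 in ex2/flu, 674 and 964 in flu and 402 and 309 in wild type. The order of the means was the same as for CML37. Ex2/flu and flu did not overlap with any other genotype, while the 2 arrays of ex1/ex2/flu lay on either side of the wild type arrays and one of them within the range of ex1/flu. On the log2 scale the means were 8.48 ± 0.85 in ex1/ex2/flu, 9.08 ± 0.09 in ex1/flu, 10.73 ± 0.41 in ex2/flu, 9.65 ± 0.37 in flu and 8.46 ± 0.27 in wild type (SD, n = 2 each). The difference of flu from wild type was 1.19 ± 0.31 log2 units, or 2.29-fold. The neighbouring AT1G76640, which carries CML39 among its RefSeq synonyms, stayed under the filter throughout (signal 1.19 to 25.0). It was picked for mention after its values were seen.

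CML23, a sensor closely related to the touch-induced CML24, lay at the 46.9th to 70.5th percentile of the signals of its arrays. Its signal was 140.5 and 146 in ex1/ex2/flu, 157 and 191 in ex1/flu, 363 and 445 in ex2/flu, 295 and 263 in flu and 151 and 149.6 in wild type. The genotypes did not overlap on any array, and ex1/ex2/flu lay just below wild type. The log2 means were 7.16 ± 0.04 in ex1/ex2/flu, 7.43 ± 0.20 in ex1/flu, 8.65 ± 0.21 in ex2/flu, 8.12 ± 0.11 in flu and 7.23 ± 0.01 in wild type (SD, n = 2 each). Flu stood 0.89 ± 0.19 log2 units above wild type (1.85-fold).

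AT4G27280, a gene for a protein with EF-hands, lay between the 93.2nd percentile of its array, in wild type, and the 99.4th, in ex2/flu. Its signal was 3693 and 4042 in ex1/ex2/flu, 5013 and 5781 in ex1/flu, 10793.5 and 11833 in ex2/flu, 9254 and 10420.3 in flu and 2685 and 2206 in wild type. All 5 genotypes were separate, in the order ex2/flu, flu, ex1/flu, ex1/ex2/flu and wild type, though the gap between ex2/flu and flu was narrow. The log2 means were 11.92 ± 0.09 in ex1/ex2/flu, 12.39 ± 0.15 in ex1/flu, 13.46 ± 0.09 in ex2/flu, 13.26 ± 0.12 in flu and 11.25 ± 0.20 in wild type (SD, n = 2 each). Flu stood 2.01 ± 0.13 log2 units above wild type (4.03-fold).

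AT5G66650, the uniporter family gene, had a signal of 258 and 174 in ex1/ex2/flu, 394 and 280.2 in ex1/flu, 1597 and 1335 in ex2/flu, 840.0 and 1326 in flu and 77.8 and 67.1 in wild type. The order was again ex2/flu, flu, ex1/flu, ex1/ex2/flu and wild type without overlap, but the lower array of ex2/flu and the higher array of flu were almost equal. The log2 means were 7.73 ± 0.40 in ex1/ex2/flu, 8.38 ± 0.35 in ex1/flu, 10.51 ± 0.18 in ex2/flu, 10.04 ± 0.47 in flu and 6.17 ± 0.15 in wild type (SD, n = 2 each). Both wild type arrays were below the level of the filter, so the difference was taken from that level. The mean of flu lay 3.54 log2 units above it, or 11.7-fold. With 2 arrays of flu this is an estimate and not a sure lower limit. Both arrays of ex1/ex2/flu were above the filter.

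**Figure D1:**
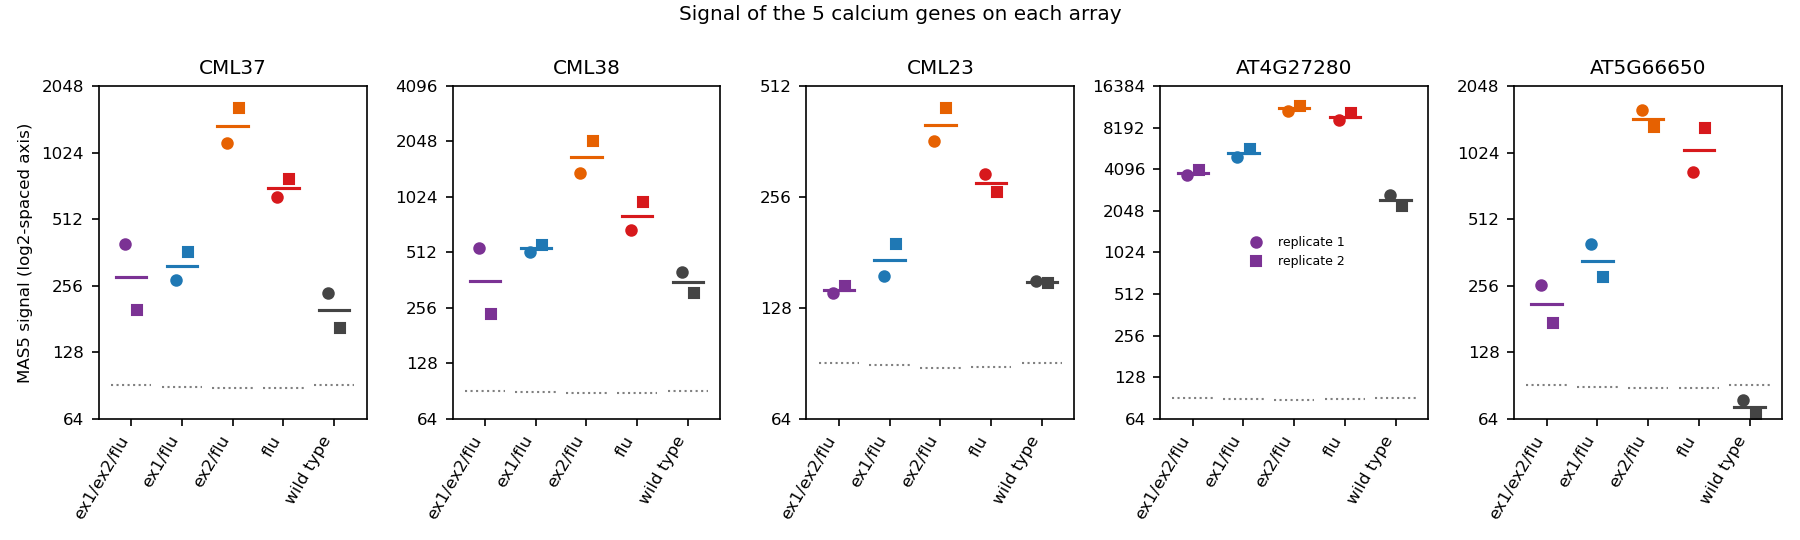
Signal of each gene (vertical axis, MAS5 signal, log2-spaced, own range per panel) on the 2 arrays of each genotype, with circles for replicate 1, squares for replicate 2, bars at the mean of the log2 values and dotted lines at the level of the filter. In every panel the arrays of ex2/flu and flu lie above those of ex1/flu, ex1/ex2/flu and wild type, and only AT5G66650 in wild type lies under the dotted line.

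All 5 genes were called higher in flu against wild type by limma (adjusted p under 0.05 over 14435 probe sets), where 2.83% of the probe sets tested were called higher. That count was 3 of 5 without wild type replicate 1, without wild type replicate 2, without flu replicate 1 and without flu replicate 2. The smallest differences were those of CML38 and CML23, at 1.19 and 0.89 log2 units. CML38 was also not called without the filter, without the intensity trend or with the replicate number as a block. The material was bulk leaf tissue, so fewer cells that express a gene and less RNA per cell cannot be told apart.

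The loss of each EXECUTER gene was then set against flu. These comparisons all use the flu arrays, on which the genes were chosen, so the differences are a description too. In ex1/flu the 5 genes were lower than in flu, with log2 differences of -1.67 ± 0.25 for AT5G66650, -1.17 ± 0.29 for CML37, -0.87 ± 0.13 for AT4G27280, -0.69 ± 0.19 for CML23 and -0.58 ± 0.31 for CML38 (moderated SE, n = 2 per genotype). No array of ex1/flu overlapped with flu for any of them, and 20.2% of all probe sets tested were likewise lower on both arrays. AT5G66650 and AT4G27280 were called, 2 of 5 genes, where 1.14% of the probe sets tested were called lower, and 0 of 5 were called without flu replicate 2. The difference of CML38 was -0.32 without flu replicate 2.

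In ex2/flu the 5 genes lay above flu on both arrays, as did 21.7% of all probe sets tested. The differences were 1.07 ± 0.31 log2 units for CML38, 0.94 ± 0.29 for CML37, 0.53 ± 0.19 for CML23, 0.47 ± 0.25 for AT5G66650 and 0.20 ± 0.13 for AT4G27280. None of the 5 passed the limma threshold, where 0.333% of the probe sets tested were called higher, and the unadjusted p was under 0.05 for 3 of them, beside 14.1% of all probe sets. Both CML37 and CML38 were called in the fit with the arrays of ex2/flu and flu alone. The difference of AT5G66650 was 0.14 without flu replicate 1 and 0.80 without flu replicate 2, and that of AT4G27280 was 0.12 without flu replicate 1.

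All 5 genes lay below flu in ex1/ex2/flu, with log2 differences of -2.32 ± 0.25 for AT5G66650, -1.35 ± 0.13 for AT4G27280, -1.34 ± 0.29 for CML37, -1.17 ± 0.31 for CML38 and -0.96 ± 0.19 for CML23. The limma threshold was passed by 4 of the 5, all but CML38, where 2.51% of the probe sets tested were called lower. That count was 2 without flu replicate 1, without flu replicate 2 or without ex1/ex2/flu replicate 2. The arrays of ex1/ex2/flu were far apart for the CML37 and CML38 pair, whose differences were -0.85 and -0.58 without ex1/ex2/flu replicate 2, against -1.83 and -1.77 without replicate 1.

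The position of each line between wild type and flu was expressed as the share of the log2 difference of flu from wild type. All shares rest on the same wild type and flu arrays. The share kept in ex1/ex2/flu was 33.1% for AT4G27280 (28.1% to 37.5% when each of the 6 arrays was left out in turn), 27.0% for CML37 (0.0857% to 53.9%), 1.77% for CML38 (-48.3% to 51.8%) and -7.90% for CML23 (-11.2% to -4.56%). CML23 was thus at or slightly under its wild type level, AT4G27280 stayed above its own, and the shares of CML37 and CML38 could not be placed, since 1 array decided them. For AT5G66650, with wild type set at the level of the filter, the share was 34.7% (26.6% to 42.7%). In ex1/flu the share was 22.5% for CML23 (6.35% to 38.7%), 36.3% for CML37 (24.9% to 47.7%), 51.6% for CML38 (42.4% to 65.9%), 53.0% for AT5G66650 (46.0% to 59.9%) and 56.9% for AT4G27280 (51.8% to 62.0%). In ex2/flu they ran from 110.1% for AT4G27280 and 113% for AT5G66650 to 151% for CML37, 159% for CML23 and 189.8% for CML38. None fell under 100 percent when 1 array was left out. That was fixed in advance, since both arrays of ex2/flu lay above both of flu for every gene.

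**Figure D2:**
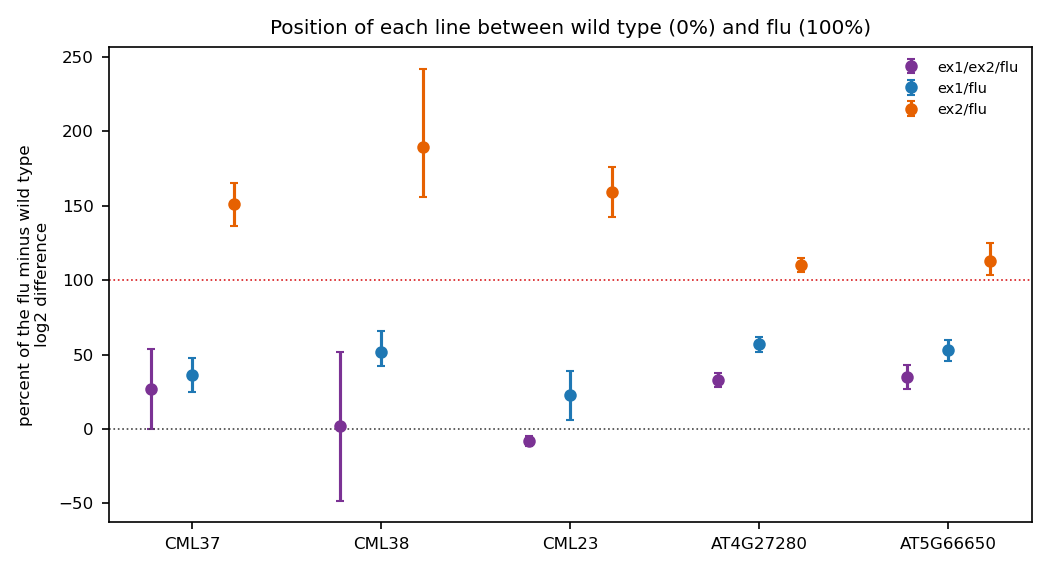
Share of the flu minus wild type log2 difference (vertical axis, percent) kept by the 3 lines with EXECUTER mutations for each gene, with bars from the lowest to the highest value when 1 of the 6 arrays is left out. Wild type is 0% and flu 100% by construction, AT5G66650 is shown with wild type at the level of the filter, and the ex2/flu points, from 110.1% to 189.8%, lie above the flu line for the 5 genes.

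The lines were also set against each other, which asks what the 2 EXECUTER genes do separately within flu. The genes were chosen with the values of these lines known, so these differences are a description too, without a p-value per gene. In ex1/flu all 5 genes lay below ex2/flu on both arrays, as did 13.6% of all probe sets tested. The log2 difference, with 2 arrays per genotype, was -2.13 ± 0.25 for AT5G66650 and -2.11 ± 0.29 for CML37. These lay at the 0.0762nd and 0.0831st percentile of the differences of all probe sets tested. It was -1.65 ± 0.31 for CML38, -1.22 ± 0.19 for CML23 and -1.07 ± 0.13 for AT4G27280. The limma threshold was passed by 5 of the 5, where 1.83% of the probe sets tested were called lower, and by 4, all but CML38, without ex2/flu replicate 2.

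In ex1/ex2/flu against ex2/flu, the loss of EX1 where EX2 was already absent, the 5 genes were also lower on both arrays, as were 17.2% of all probe sets tested. The log2 difference of AT5G66650 was -2.78 ± 0.25, a 6.89-fold lower signal. It was -2.28 ± 0.29 for CML37, -2.25 ± 0.31 for CML38, -1.55 ± 0.13 for AT4G27280 and -1.49 ± 0.19 for CML23. The limma threshold was passed by 5 of the 5, where 2.47% of the probe sets tested were called lower. The sizes of CML37 and CML38 depended on the array of ex1/ex2/flu used, at -1.78 and -1.65 without its replicate 2.

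In ex1/ex2/flu against ex1/flu, the loss of EX2 where EX1 was already absent, none of the 5 genes passed the limma threshold, where 0.0346% of the probe sets tested were called lower. The unadjusted p was under 0.05 for 2 of the 5, beside 5.45% of all probe sets. AT5G66650 differed by -0.65 ± 0.25 log2 units (95% interval -1.17 to -0.13) and AT4G27280 by -0.48 ± 0.13 (-0.77 to -0.19). For both genes, and for CML23 (-0.27 ± 0.19, -0.68 to 0.14), the arrays of ex1/ex2/flu lay under those of ex1/flu, as did 14.4% of all probe sets tested. CML38 (-0.60 ± 0.31, -1.25 to 0.06) and CML37 (-0.17 ± 0.29, -0.78 to 0.44) overlapped. Without ex1/ex2/flu replicate 2 their differences turned to 0.0023 and 0.32, and that of CML37 was 0.04 without ex1/flu replicate 2. The intervals do not show that the lines are alike. Since the genes were chosen with these values known, the intervals and the count of unadjusted p are no test of the loss of EX2 either.

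**Figure D3:**
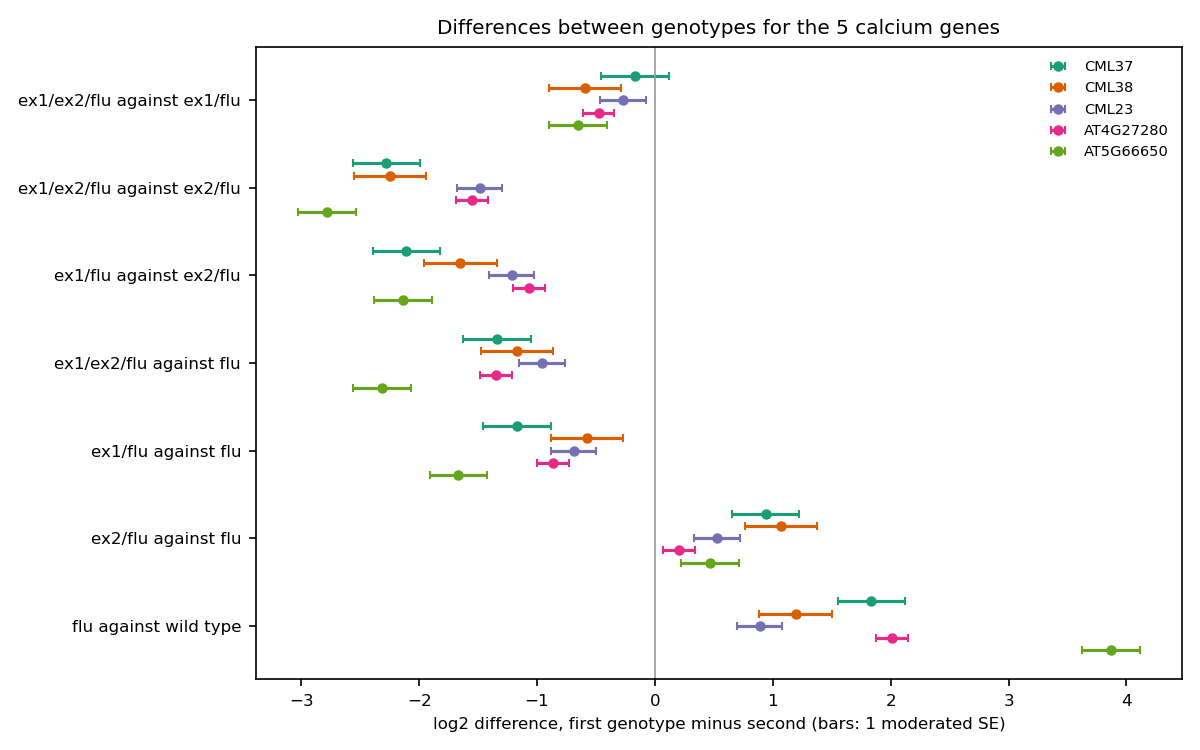
Log2 difference between 2 genotypes (horizontal axis, first genotype minus second, bars of 1 moderated SE, n = 2 per genotype) for the 5 genes in the 7 comparisons. The genes lie left of 0 in the comparisons of ex1/flu and ex1/ex2/flu with ex2/flu and with flu and right of 0 for ex2/flu against flu and flu against wild type. Those of ex1/ex2/flu against ex1/flu lie between -0.65 and -0.17. The point of AT5G66650 for flu against wild type is the measured difference. Taken from the level of the filter, that difference is 3.54.

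The arrays also differed in the signal of the control probe sets for Bacillus subtilis RNAs, which are meant to be spiked in before labelling. Split at the widest gap, these controls were low on 4 arrays (replicate 2 of ex1/flu, ex2/flu and flu, and replicate 1 of wild type) and high on 6. Their mean log2 signal was 5.96 to 6.17 on the low arrays and 6.43 to 6.80 on the high ones. The hybridisation controls had 10.5 to 11.1. Such dim signals lie around the level of the filter. Whether the split reflects RNA added before labelling was not tested. For ex1/flu against ex2/flu, the log2 differences of the 5 genes ran from -2.25 to -1.03 within the low arrays and from -2.05 to -1.11 within the high arrays. Each of these is 1 array minus 1 array. Their sign was fixed in advance, since ex1/flu lay below ex2/flu on both arrays. Both arrays of ex1/ex2/flu were high. Within the high arrays the differences of ex1/ex2/flu ran from -2.91 to -1.34 against ex2/flu and from -0.90 to 0.04 against ex1/flu. These set 2 arrays of ex1/ex2/flu against 1 of the other line, and the sign against ex2/flu was fixed in the same way.

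The 5 profiles were alike over the 10 arrays, with Pearson correlations of the log2 signal between 0.85 (CML38 with AT4G27280) and 0.98 (AT4G27280 with AT5G66650). The arrays share the 5 genotypes on which the genes were chosen, so the correlations are a description. Once the genotype means were taken out, CML37 and CML38 still moved together (0.95 over the 10 arrays), and the other pairs ran from -0.75 for CML23 with AT5G66650 to 0.57 for CML38 with AT5G66650. With 2 arrays per genotype, these values rest on 5 gaps between replicates, 1 per genotype, and not on 10 separate points. For CML37 and CML38 the gap of ex1/ex2/flu was the widest. Put another way, the array with more CML37 also had more CML38 in each of the 5 genotypes. The gap between replicates 1 and 2 of ex1/ex2/flu was 0.988 log2 units for CML37 and 1.196 for CML38, at the 99.0th and 99.5th percentile of the gaps of all probe sets tested, whose median was 0.15. The corresponding gap was 0.57 for AT5G66650, at the 93.7th percentile, -0.06 for CML23 and -0.13 for AT4G27280, so those arrays differed for 3 of the genes and little for the other two.

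**Figure D4:**
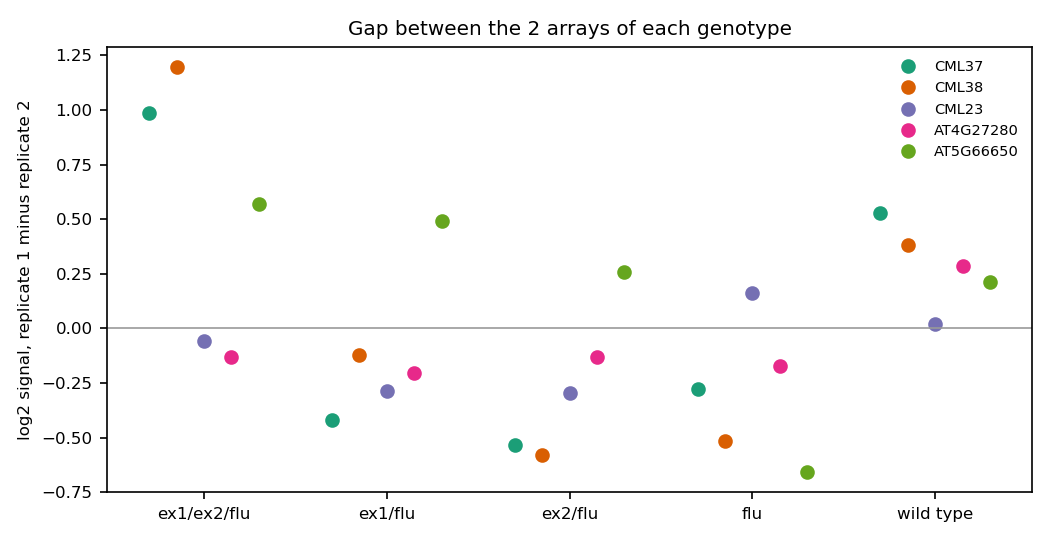
Log2 signal of replicate 1 minus replicate 2 (vertical axis) in each genotype for the 5 genes, 1 point per gene and genotype. CML37 and CML38 lie on the same side of 0 in the 5 genotypes and are farthest from it in ex1/ex2/flu, at 0.988 and 1.196, where CML23 and AT4G27280 lie at -0.06 and -0.13.

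By Pearson correlation over the 10 arrays, the 3 genes most like each member were taken from 2965 probe sets with 1 gene and an SD of at least 0.25. For AT4G27280 they were STZ (0.997), a zinc-finger repressor of stress genes, AT4G26400 (0.994) and AR781 (0.991). For AT5G66650 they were AT4G29780 (0.9896), AT4G26400 (0.987) and AT1G72940 (0.986). AT3G10930 (0.986), AT1G32920 (0.979) and AT3G01830 (0.9751) were nearest to CML23. CML37 was followed most closely by VPS60.1 (0.983), AT2G28400 (0.979) and AT1G66090 (0.976), and CML38 by ORA47 (0.966), an ethylene response factor, AT5G52760 (0.966) and AT3G01830 (0.963). AT4G26400 was thus shared by the EF-hand gene and the uniporter family gene, and AT3G01830 by 2 of the CML genes. By Spearman correlation 1 of the 3 genes was kept for AT4G27280 and for AT5G66650, and 0 for each CML gene, so the ranking among these near-equal values is loose.

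Other genes of calcium signalling were read from lists of 174 further loci, of which 16 had a probe set of their own and 11 were tested. The gene table used here pairs 13513 of the 22746 gene probe sets with 1 gene, so the other loci were not analysed here, which says nothing of whether the array measures them. This holds for all the calcineurin B-like proteins, calcium-dependent and CBL-interacting kinases, calcium pumps and calmodulin-binding factors listed. Calmodulin-like genes were listed by their RefSeq names, so genes known there only by a locus were not counted, and the counts do not stand for all calcium sensors. In flu against wild type 0 of the 11 were called by limma in either direction, where 3.84% of the probe sets tested were called, and 3 had an unadjusted p under 0.05, beside 15.2% of all probe sets. Their median difference was 0.20 log2 units, with a range from -0.76 to 0.44, beside a median of -0.04 over all probe sets tested. Of the calmodulin-like list 3 further genes were tested. CML42 differed by 0.27 ± 0.17 (adjusted p by limma 0.509) and CML41 by -0.33 ± 0.19 (0.453). Of 8 glutamate receptor-like channel genes with a probe set 5 were tested, among them GLR2.7 (-0.20 ± 0.18, limma adjusted p 0.658) and GLR3.3 (-0.05 ± 0.19, 0.942). GLR1.4, named after its values were seen, had the lowest difference of the 11 (-0.76 ± 0.21, limma adjusted p 0.0576).

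AT2G46600, entered on the list of small EF-hand relatives by its locus, had signals of 6918 and 6064 in ex1/ex2/flu, 8759 and 8690.4 in ex1/flu, 10685.7 and 9737 in ex2/flu, 9755 and 9721 in flu and 7814 and 7324 in wild type. It was the 1 of the 11 that was called against flu in ex1/ex2/flu, where it fell, with a log2 difference of -0.59 ± 0.11 (adjusted p by limma 0.00742). It also fell in ex1/ex2/flu against ex2/flu (-0.66 ± 0.11, adjusted p by limma 0.00217). The call against flu was lost without flu replicate 1 (adjusted p by limma 0.07), without flu replicate 2 (0.0695), without ex1/ex2/flu replicate 2 (-0.49, 0.187) and without the intensity trend (0.0805), and over the 18 alternatives the adjusted p ran from 0.00488 to 0.187. The call against ex2/flu was lost without ex1/ex2/flu replicate 2 (-0.56, adjusted p by limma 0.0737) and held in the other 17, with a lowest adjusted p of 0.00145. In flu against wild type it differed by 0.36 ± 0.11 (limma adjusted p 0.0974). On the list of the uniporter family and its regulator, AT1G09575 was measured, and so was AT4G32060, which was entered as the regulator. AT1G09575 had signals of 133 to 219.8 over the 10 arrays and AT4G32060 of 2566 to 3486. Neither was called in any of the 7 comparisons, and in flu against wild type they differed by 0.44 ± 0.20 and 0.24 ± 0.13 (limma adjusted p 0.322 and 0.453).

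**Figure D5:**
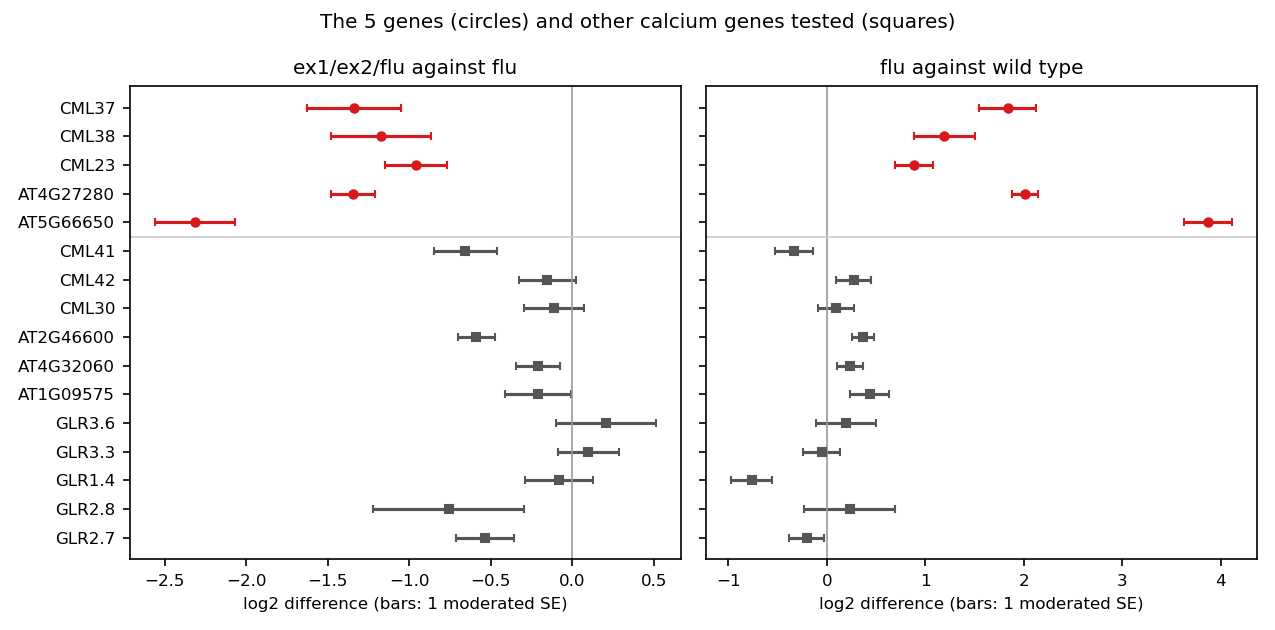
Log2 differences (horizontal axes, bars of 1 moderated SE, n = 2 per genotype) of the 5 genes (circles, above the line) and of the 11 other calcium genes tested (squares) in ex1/ex2/flu against flu (left) and flu against wild type (right). The squares lie between -0.76 and 0.44 on the right, while the 5 genes, which were chosen for being high there, lie at 0.89 and above. The squares do not stand for all calcium sensors, since genes known only by a locus were not listed as calmodulin-like.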

How the data were processed

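The authors deposited 1 intensity value per probe set and array, a linear signal made with GCOS 1.2 and MAS5 per the submitters' processing notes. How the background was treated there, and the scaling target, were not stated in what was used here. Detection calls were not analysed here. From these values 64 control probe sets were left out, and signals were put on a log2 scale without an offset or further normalization, since the deposited arrays already shared a trimmed mean. A probe set was kept if 2 or more of the 10 arrays had it at or above their 40th percentile. A linear model in limma 3.58.1 (R 4.3.3), with genotype means and a trend of the variance on intensity, took in the 10 arrays (5 residual and 10.0 prior degrees of freedom), with Benjamini-Hochberg adjustment over 14435 probe sets and a threshold of 0.05. It was tested on simulated data. With 2 arrays per group an exact two-sided permutation test cannot go below 0.333, and the number of arrays limits the precision. Nothing says beyond "biological replicates" how separately the pools were grown.

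Probe sets were named through the array's gene table (13513 with 1 gene) and RefSeq TAIR10.1, used for names and neighbours only, since no build is named for the array. The members and lists were chosen with earlier results of these data known. Named genes were the 5 members and the measured genes of the uniporter list, which includes a regulator, and of the small EF-hand list. Up to 4 called genes of each other list or its 2 brightest, and the 3 genes most correlated with each member, were also named. Where wild type was below the filter, the difference was measured from the filter's level. The alternatives were no filter, quantile normalization, an offset of 32, no trend, only the arrays compared, blocks for replicate number and spike-in level, and each array left out. The block for poly-A spike-in level, the interaction term and the alternatives for the other calcium genes were chosen after seeing the data. Plots used matplotlib 3.10.9 under Python 3.11.15.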

Additional observations from a re-analysis of the deposited data

Results flagged for a closer look

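For 3 genes the loss of EX2 went in opposite directions on every array, depending on whether EX1 was present. AT5G66650, AT4G27280 and CML23 were lower on both arrays of ex1/ex2/flu than on either array of ex1/flu, but higher on both arrays of ex2/flu than on either array of flu. The difference of the 2 effects, without EX1 minus with EX1, was -1.12 ± 0.35 log2 units for AT5G66650, -0.68 ± 0.19 for AT4G27280 and -0.80 ± 0.27 for CML23 (moderated SE, n = 2 per genotype). Of all 14435 probe sets tested, 4.44% had this same pattern and 9.28% had opposite directions either way round. The interaction term was not called by limma for any of the 5 genes, so the difference is not shown. Its unadjusted p was under 0.05 for 5 of the 5, beside 11.6% of all probe sets. The term was also -1.11 ± 0.40 for CML37 and -1.67 ± 0.43 for CML38, whose arrays of ex1/ex2/flu and ex1/flu overlapped. It was added after the data were seen and includes the flu arrays on which the genes were chosen.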

How the results depend on the processing

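In 18 alternatives, the single-gene differences of the 3 comparisons between lines kept direction and side of the threshold in 264 cases, lost the call in 2 (CML38, ex1/flu against ex2/flu) and turned sign in 4. The choice of the genes favours such constancy, so it is no support for them. CML37 in ex1/ex2/flu against ex1/flu turned to 0.049 with the poly-A spike-in block and ran from -0.66 to 0.32 when 1 array was left out, and CML38 ran from -1.19 to 0.0023. Those 4 turns concern values within their own intervals, and their cause was not tested. Of 360 differences in the other comparisons none turned, and 3 moved by more than the replicate SD, all with the offset of 32. Many cases in both counts could not turn by construction. A difference stays the same without the filter, the trend or an array of another genotype, with the replicate block and with only the arrays compared. Leaving 1 array out cannot turn the sign where 2 genotypes do not overlap. None of the genes overlapped in those other comparisons. Of all probe sets tested, 21.2% lay above wild type on both arrays of flu and 21.7% above flu in ex2/flu. Below flu lay 20.2% in ex1/flu and 22.2% in ex1/ex2/flu.

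Members called in flu against wild type were 3 with the hybridisation spike-in block, which sets apart wild type replicate 2 alone, and 3 to 5 when 1 array was left out. That range was 0 to 3 in ex1/flu against flu and 2 to 5 in ex1/ex2/flu against flu. In ex2/flu against flu it was 0 to 1, with 2 when only the arrays compared were fitted. Of all probe sets, 408 were higher in flu against wild type (227 with the hybridisation block, 198 to 484 with 1 array left out) and 165 lower in ex1/flu against flu (93 without the trend, 51 to 203). The count of lower probe sets was 363 in ex1/ex2/flu against flu (241 without the trend, 123 to 497). In ex2/flu against flu 48 were higher (9 without the filter, 3 without the trend, 84 with the arrays compared, 22 and 115 with the hybridisation and poly-A blocks, 2 to 84 with 1 array left out). Between ex1/ex2/flu and ex1/flu 5 were lower (0 without the filter, 0 without the trend, 0 with the poly-A block, 1 with the hybridisation block, 1 with the arrays compared, 0 to 10). The leave-one-out range was 166 to 264 for ex1/flu against ex2/flu and 219 to 403 for ex1/ex2/flu against ex2/flu. Other calcium genes called in flu against wild type were 1 with the offset, 1 without the trend and 1 with the poly-A block. Their number in ex1/ex2/flu against flu was 0 without the trend and 0 to 2 with 1 array left out, and against ex2/flu 0 to 1.

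Same-numbered arrays of 2 genotypes deviated together at correlations of -0.09 to 0.43, and 1 of 10 was over 0.1. That 1 was ex1/flu with ex2/flu (0.43), lines that were compared above. Replicate numbers may thus pair the arrays of these lines, while the other genotypes showed no such pairing. With the replicate number as a block, 399 probe sets were higher in flu against wild type and 270 lower in ex1/flu against ex2/flu, and members called were 4 and 5. The 2 arrays per genotype limit all of these counts.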
